A study of Mus musculus with 2 samples.

Results

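Fgf signaling genes were examined in the list of genomic regions bound by Isl1 in dissected cardiogenic mesoderm and heart regions of C57BL/6 mouse embryos at E8.25-E9. The 10 genes were the ligands Fgf3, Fgf8, Fgf9, Fgf10 and Fgf15, the receptors Fgfr1, Fgfr2 and Fgfr3, and the feedback inhibitors Spry1 and Spry2. Their peaks were the rows of the list whose gene symbol equals one of these names, and 35 of 48295 peaks met this rule. The study used chromatin immunoprecipitation followed by sequencing (ChIP-Seq) with a monoclonal anti-Isl1 antibody on crosslinked nuclei pooled from many embryos, for which the labels name no engineered allele. One Isl1 ChIP sample had a peak list, and the matching input sample was not analysed here. For each peak the list gives a position, the closest gene and the distance to the transcription start site (TSS) of that gene, but no peak height, p-value or read count, so the depth is unknown and no peak could be weighted by its strength. With 1 list there was no replicate check, and every count below is a description of this list. The dissected regions hold several cell types, and peaks do not tell in which of them Isl1 was bound.

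Isl1 is a LIM homeodomain transcription factor of second heart field (SHF) progenitors, the cells that add the right ventricle, outflow tract and parts of the atria to the heart tube. Homeodomain proteins recognize short sites with a TAAT core. Fgf ligands are secreted proteins that bind receptor tyrosine kinases on the cell surface and activate Ras-MAPK signaling, ETS transcription factors of the Etv family act downstream, and Sprouty proteins are induced by the pathway and dampen it. In the pharyngeal region of the embryo, Fgf8 and Fgf10 mark SHF progenitors and support their proliferation and their addition to the outflow tract.

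Of the 10 genes, 7 had at least 1 Isl1 peak. Fgf9 had 12 peaks, Fgf10 had 8, Fgfr2 had 5, Fgfr1 and Spry2 had 4 each, and Fgf15 and Spry1 had 1 each. No peak was assigned to Fgf3, Fgf8 or Fgfr3. The share of genes with a peak was 70.0% (95% exact binomial interval 34.8 to 93.3%, n = 10 genes), against 51.8% of 21031 protein-coding genes. This interval and those that follow cover counting error only and treat genes or peaks as independent. Genes with at least 4 peaks numbered 5 of 10, against 14.3% of all protein-coding genes. Fgf10 and Fgfr1, 2 of 10 genes (20.0%), had an assigned peak less than 10 kb from the TSS, whereas this was so for 25.6% of all protein-coding genes.

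**Figure D1:**
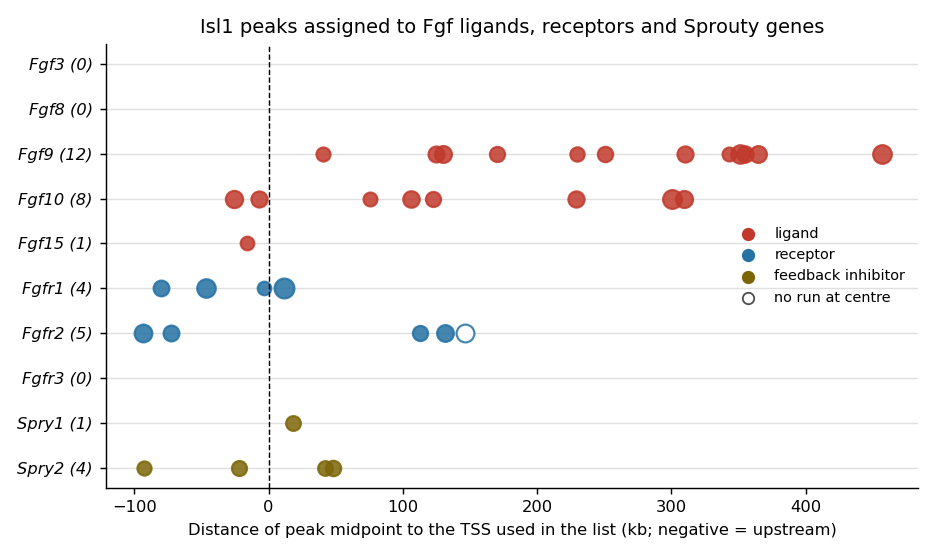
Position of each of the 35 Isl1 peaks relative to the TSS used in the list, in kb, with negative values upstream. Each point is 1 peak, its area grows with the width of the peak, its colour gives the role of the gene, and the number after each name counts its peaks. All 12 Fgf9 peaks lie downstream, and the open circle at Fgfr2 is the peak without a purine or pyrimidine run at its centre.

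The sequence at the centre of the peaks is shown first, because nearly all of the peaks share 1 feature. For 6 of the 7 genes with a peak, the 201 bases around the midpoint of its closest peak are printed from mouse genome build mm9 on the plus strand, followed by the only peak of these genes whose centre lacked the feature, at Fgfr2, and by the peak closest to Fgf8, which was assigned to the neighbouring gene Npm3. Capitals mark each uninterrupted run of at least 25 purines (A or G) or at least 25 pyrimidines (C or T).
Fgf9 (chr14:58731797-58731997): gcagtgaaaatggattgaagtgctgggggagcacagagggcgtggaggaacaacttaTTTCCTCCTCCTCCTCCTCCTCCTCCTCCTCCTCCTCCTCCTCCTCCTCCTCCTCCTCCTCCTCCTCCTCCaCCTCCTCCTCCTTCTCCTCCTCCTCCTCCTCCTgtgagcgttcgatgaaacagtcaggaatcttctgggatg
Fgf10 (chr13:119496488-119496688): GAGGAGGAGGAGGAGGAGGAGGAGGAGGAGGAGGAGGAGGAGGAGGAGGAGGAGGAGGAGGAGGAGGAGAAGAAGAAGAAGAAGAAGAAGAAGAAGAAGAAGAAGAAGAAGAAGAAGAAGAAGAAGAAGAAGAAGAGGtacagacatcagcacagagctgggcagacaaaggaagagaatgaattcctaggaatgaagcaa
Fgf15 (chr7:152066462-152066662): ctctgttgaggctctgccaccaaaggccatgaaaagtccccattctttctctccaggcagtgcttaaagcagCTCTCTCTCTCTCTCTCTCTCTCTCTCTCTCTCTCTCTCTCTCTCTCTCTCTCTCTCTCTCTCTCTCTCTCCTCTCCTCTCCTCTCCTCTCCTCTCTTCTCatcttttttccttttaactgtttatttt
Fgfr1 (chr8:26626080-26626280): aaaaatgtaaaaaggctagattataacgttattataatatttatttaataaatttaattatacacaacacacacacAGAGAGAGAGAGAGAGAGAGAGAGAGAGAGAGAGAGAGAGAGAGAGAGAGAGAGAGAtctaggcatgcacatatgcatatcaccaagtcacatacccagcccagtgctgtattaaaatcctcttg
Fgfr2 (chr7:137483135-137483335): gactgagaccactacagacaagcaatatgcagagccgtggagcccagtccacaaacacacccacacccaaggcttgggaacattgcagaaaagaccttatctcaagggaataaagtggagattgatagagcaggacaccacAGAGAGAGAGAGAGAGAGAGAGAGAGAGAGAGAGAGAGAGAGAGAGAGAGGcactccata
Fgfr2 peak without a run (chr7:137264084-137264284): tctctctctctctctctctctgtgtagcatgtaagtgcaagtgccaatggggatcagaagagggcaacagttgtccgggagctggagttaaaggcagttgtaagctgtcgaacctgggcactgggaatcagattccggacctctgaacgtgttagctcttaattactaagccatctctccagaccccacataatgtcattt
Spry1 (chr3:37556968-37557168): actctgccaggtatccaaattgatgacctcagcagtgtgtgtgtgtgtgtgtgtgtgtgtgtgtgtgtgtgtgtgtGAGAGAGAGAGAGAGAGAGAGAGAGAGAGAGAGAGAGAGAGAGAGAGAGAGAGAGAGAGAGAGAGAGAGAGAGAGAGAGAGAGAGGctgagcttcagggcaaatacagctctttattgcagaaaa
Npm3, nearest to Fgf8 (chr19:45824245-45824445): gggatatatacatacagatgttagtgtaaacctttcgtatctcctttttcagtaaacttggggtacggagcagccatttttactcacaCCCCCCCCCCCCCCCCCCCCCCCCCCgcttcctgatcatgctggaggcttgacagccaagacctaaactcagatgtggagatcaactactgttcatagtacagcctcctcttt

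The window at the closest Fgf10 peak held 138 purines in a row, 68 A and 70 G, made of repeated GAG and GAA triplets. They were part of a run of 178 purines that began outside the window. The Fgf15 window held 101 pyrimidines in a row, most of them CT repeats. Fgfr1, Fgfr2 and Spry1 each had GA repeats, with the longest run at 57, 51 and 86 purines. The Fgf9 window held 71 pyrimidines, 46 C and 25 T, in CCT triplets. The peak next to Fgf8 was centred on 26 uninterrupted C.

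Such runs were present at the centre of 34 of the 35 peaks (97.1%, interval 85.1 to 99.9%). Over all 48295 peaks the share was 94.1%. Windows of the same length placed 1 kb to either side of the 35 peaks held a run in 3 of 70 cases (4.29%), and those beside all peaks in 3.96%. The median longest run at the centre was 101 bases in the 35 peaks and 92.0 bases over all peaks. Read on the plus strand, runs of purines were the longest in 21 of the 34 peaks and runs of pyrimidines in 13. Over all peaks with a run, these counts were 22740 and 22718. A CT or GA repeat of at least 4 units was present in 21 of the 35 (60.0%), against 56.1% of all peaks. Searched over the whole peak, all 35 had a run, from 48 to 422 bases long, and 96.3% of all peaks had one. How far these runs contributed to the calling of the peaks was not tested.

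**Figure D2:**
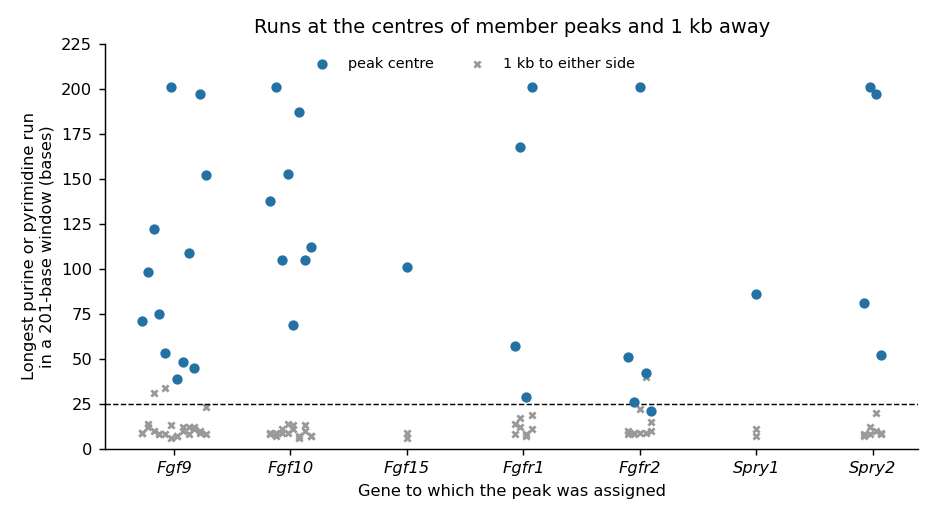
Longest purine or pyrimidine run over the 201 bases at the centre of each member peak (blue points) and in windows of the same length 1 kb to either side (grey crosses), in bases, by gene. The dashed line marks 25 bases. The centres of 34 of 35 peaks lie above it, and 3 of 70 flanking windows do.

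The TAAT core was less frequent at the centres than beside them. TAAT or its reverse complement ATTA occurred at least once in 13 of the 35 windows (37.1%, interval 21.5 to 55.1%) and in 52 of the 70 windows 1 kb away (74.3%). Over all peaks the corresponding shares were 35.6% and 73.6%. A run of only purines or only pyrimidines cannot hold TAAT, ATTA or the longer letters given below. The median longest run at the 35 centres was 101 bases, whereas 4.29% of their flanking windows held a run of at least 25. The centres thus had less sequence in which a match was possible. How much of the difference this accounts for was not tested. Among all 2837 peaks without a run at the centre, the shares were 37.3% and 66.8%. Of these peaks, 36.4% held a run when the whole peak was searched. Their median GC content was 50.2% at the centres and 44.3% in flanking windows. For the 35 peaks, the median GC content was 48.3% at the centres and 42.8% in the flanking windows. The Fgfr1 window printed above was the richest of the 35 in this motif with 7 matches, all counted on both strands and with overlaps, at a GC content of 35.8%. The longer letters CTAATG or CTAATT, on either strand, were present in 1 of the 35 windows, at a Fgf9 peak 125 kb downstream of the TSS. They were present in 16 of the 70 windows 1 kb away (22.9%), in 5.99% of all peak centres and in 17.0% of all flanking windows. A match describes the letters only and is not evidence of a bound site.

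Among the ligands, Fgf9, which signals from the endocardium and epicardium to the myocardium in the later heart, had the most peaks. At least 12 peaks were assigned to 2.77% of all protein-coding genes. The 12 peaks lay between 40.4 and 456 kb downstream of the TSS and none lay upstream. The closest, chr14:58731728-58732066, was 339 bp wide and intergenic, just past the 3′ end of the longest annotated transcript at 58731174, and no peak lay over the 41.8 kb of that transcript. The widest, chr14:59147567-59148279, measured 713 bp and was the farthest away. The Fgf9 peaks were separated by a median of 33.1 kb, and the closest neighbours among them were 4.02 kb apart. The next protein-coding TSS upstream of Fgf9, that of Efha1, lay 71.3 kb away, whereas the next one downstream, that of Rpl13-ps3, lay 817 kb away.

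Fgf10, an SHF ligand, had 8 peaks, 2 upstream and 6 downstream of the TSS used in the list (119503506 on chromosome 13). At least 8 peaks were assigned to 5.56% of protein-coding genes. The closest peak, chr13:119496342-119496834, lay 6.92 kb upstream and was 493 bp wide. It fell in an intron of longer non-coding Fgf10 transcripts that start at 119458598 and 119458631 in GENCODE, as did the peak 25.8 kb upstream, chr13:119477447-119478033, which held the longest run of the 35 peaks with 422 purines. The peak 75.4 kb downstream, chr13:119578730-119579059, overlapped the 3′ UTR in exon 3, the last exon of the coding transcript, and was the only one of the 35 peaks that overlapped an exon. It was 330 bp wide, with 105 pyrimidines in a row. No peak lay in either intron of the coding transcript, which spans 77.4 kb. The other 5 peaks were intergenic, 106 to 309 kb downstream, and the widest of these and of the gene measured 726 bp (chr13:119803566-119804291, 300 kb downstream).

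Fgf15, the mouse counterpart of human FGF19, had a single peak of 310 bp 15.9 kb upstream, at chr7:152066408-152066717 between Fgf15 and the neighbouring Fgf4. Fgf3, Fgf4 and Fgf15 lie next to each other on chromosome 7, and this peak was also the closest to Fgf3, a ligand of inner ear development, at 42.1 kb downstream of a Fgf3 TSS. The other 3 peaks within 100 kb of Fgf3 lay 49.5, 50.9 and 76.6 kb upstream and were assigned to Ano1, a chloride channel gene. Fgf15 had 1 further peak within 100 kb, assigned to the cell cycle gene Ccnd1.

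Fgf8, the ligand most closely tied to outflow tract development, had no peak of its own. The closest peak, chr19:45824194-45824497, lay 6.94 kb upstream of the Fgf8 TSS, but only 0.292 kb upstream of Npm3, a nucleophosmin family gene that took the assignment. It was 304 bp wide and held the 26 C shown above. The other 3 peaks within 100 kb lay 56.6, 71.7 and 76.2 kb downstream, in the interval between Fgf8 and the F-box gene Fbxw4, to which they were assigned. No peak lay over the 6.10 kb of the longest coding Fgf8 transcript.

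Among the receptors, Fgfr1, the main Fgf receptor of early mesoderm, had the closest peak of the 10 genes. This peak, chr8:26626026-26626334, lay 3.05 kb upstream of the TSS used in the list and was 309 bp wide, the narrowest of the 35. A coding transcript that starts farther upstream, at 26624126, places it in intron 2 of that transcript, 2.05 kb downstream of its start. The peak 11.3 kb downstream, chr8:26640132-26640956, lay in intron 1 of the longest coding transcript and was the widest of all 35 peaks at 825 bp, with a run of 221 pyrimidines. Measured from the closest annotated Fgfr1 start, it lay 2.21 kb upstream. The other 2 Fgfr1 peaks were intergenic, 46.8 and 79.8 kb upstream. Fgfr1 had more peaks within 100 kb than any of the other 9 genes, 8 in all, of which 4 were assigned to the neighbouring histone methyltransferase gene Whsc1l1.

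Fgfr2, which binds Fgf10 in epithelia, had 5 peaks, and the closest to the TSS used in the list was 72.9 kb away. It lay upstream at chr7:137482999-137483472 and was 474 bp wide. A second upstream peak lay at 93.8 kb. The remaining 3 peaks were 113, 131 and 146 kb downstream of the TSS, beyond the 3′ end of the gene, and none of the 5 lay over the longest retained coding transcript of 104 kb. Measured from annotated starts inside the gene, these 3 lay 13.8, 32.3 and 47.2 kb downstream, which made chr7:137297349-137297769 the closest peak to any annotated Fgfr2 TSS. The farthest of them, chr7:137263869-137264500, was the only one of the 35 peaks with no run of 25 at its centre. Its longest run there was 21 pyrimidines, the end of a run of 104 that began outside the window, and the 201 bases held 3 TAAT matches. At 632 bp it was also the widest Fgfr2 peak. Of the 10 genes, 1 (10.0%) thus had a peak whose centre held no run, against 9.58% of all protein-coding genes.

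Fgfr3, best known as a regulator of bone growth, had no peak. Peaks within 100 kb of its TSS numbered 2. The closer one, 50.1 kb upstream at chr5:34013847-34014605, overlapped an exon of Tacc3 and was assigned to that gene. The other, 85.8 kb downstream at chr5:34162759-34163397, overlapped an exon of Whsc1, a histone methyltransferase gene, had a GC content of 81.6% at its centre, and the longest run there was 6 bases.

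The feedback inhibitors differed in their number of peaks. Spry1 had 1 peak of 393 bp 18.2 kb downstream, at chr3:37556872-37557264, beyond the 4.65 kb of its longest transcript. Spry2 had 2 peaks upstream, at 22.1 and 93.0 kb, and 2 downstream, at 42.3 and 48.3 kb, all intergenic and all with a run. The widest, chr14:106247504-106247945, measured 442 bp. All 3 peaks within 100 kb of Spry1 that had other names were assigned to 4930594O21Rik and Gm5148.

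Considered together, the 35 peaks lay farther from the TSS than the list as a whole. Their median distance was 113 kb (range 3.05 to 456 kb), against 58.8 kb over all peaks. Within 10 kb lay 2 of 35 (5.71%, interval 0.700 to 19.2%), against 15.9% of all peaks. Upstream of the TSS lay 10 of 35 (28.6%, interval 14.6 to 46.3%), against 47.5%. The interval treats the 35 peaks as independent, although they came from 7 genes and all 12 Fgf9 peaks lay downstream. Without the 12 Fgf9 peaks, 10 of 23 (43.5%, interval 23.2 to 65.5%) were upstream and the median distance was 75.4 kb. Their median width was 482 bp (range 309 to 825 bp), against 467 bp for all peaks. By annotation, 30 of the 35 were intergenic (85.7%), 4 intronic and 1 exonic, and over all peaks 63.7% were intergenic. Without the Fgf9 peaks, 18 of 23 (78.3%) were intergenic.

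By role, the 21 ligand peaks lay at a median of 229 kb from the TSS with a median width of 495 bp. The 9 receptor peaks lay at 79.8 kb with a width of 546 bp, and the 5 Sprouty peaks at 42.3 kb with 393 bp. These medians rest on 3, 2 and 2 genes, and peaks of 1 gene share its neighbourhood.

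A rule that assigns each peak to the closest TSS gives more peaks to genes whose neighbours are far away, so the peaks were also counted per length of sequence. The sequence closest to a TSS of each gene, among all TSSs of protein-coding genes, ranged from 26.9 kb for Fgf15 to 533 kb for Fgf10. Fgf3, Fgf8 and Fgfr3, the 3 genes with no peak, could claim 49.4, 44.7 and 48.4 kb. Of all 11762 protein-coding genes with less than 50 kb, 29.8% had a peak in that sequence. Of the 3029 genes with at least 200 kb, 99.1% had one. The 5 member genes above 200 kb, Fgf9, Fgf10, Fgfr1, Fgfr2 and Spry2, were those with at least 4 peaks.

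**Figure D3:**
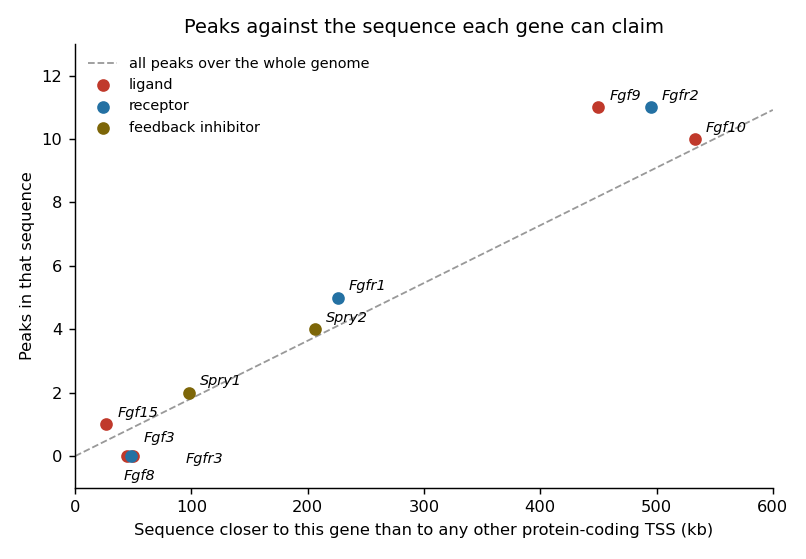
Number of Isl1 peaks in the sequence that is closer to a TSS of each gene than to that of any other protein-coding gene, against the length of that sequence in kb. Each point is 1 gene, coloured by role, and the dashed line gives the mean density of all peaks over the genome, 1.82 per 100 kb. Fgf9 lies above the line at 2.44 per 100 kb, and Fgf3, Fgf8 and Fgfr3 lie on the axis at 0 peaks.

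Over the 10 genes together, 44 peaks lay in 2178 kb of such sequence, or 2.02 per 100 kb, against 1.82 per 100 kb over the genome. With all annotated genes as neighbours, non-coding ones included, the sequence shrank to 874 kb and held 13 peaks, or 1.49 per 100 kb. Fgf9 then had 0 peaks in 56.4 kb, since its downstream peaks were closer to the non-coding genes Gm17109 and SNORA17. By individual gene the density over protein-coding neighbours was 2.44 for Fgf9, 1.88 for Fgf10, 3.72 for Fgf15, 2.21 for Fgfr1, 2.22 for Fgfr2, 2.04 for Spry1 and 1.94 for Spry2 per 100 kb. The Fgf15 value rests on 1 peak.

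The same sequence was searched for runs of at least 50 purines or pyrimidines, whether or not a peak covered them. It held 194 runs, or 8.91 per 100 kb, against 6.66 per 100 kb over the genome. A peak covered 51 of the 194 (26.3%, interval 20.2 to 33.1%), against 54063 of 176892 runs in the whole genome (30.6%). Fgf3 and Fgf8 had 4 such runs each, none of them under a peak, and Fgfr3 had none. Fgf10 had the most with 46, of which 14 were under a peak, followed by Fgfr2 with 12 of 41 and Fgf9 with 10 of 37. A peak thus covered a minority of the long runs at each of the genes that had any.

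**Figure D4:**
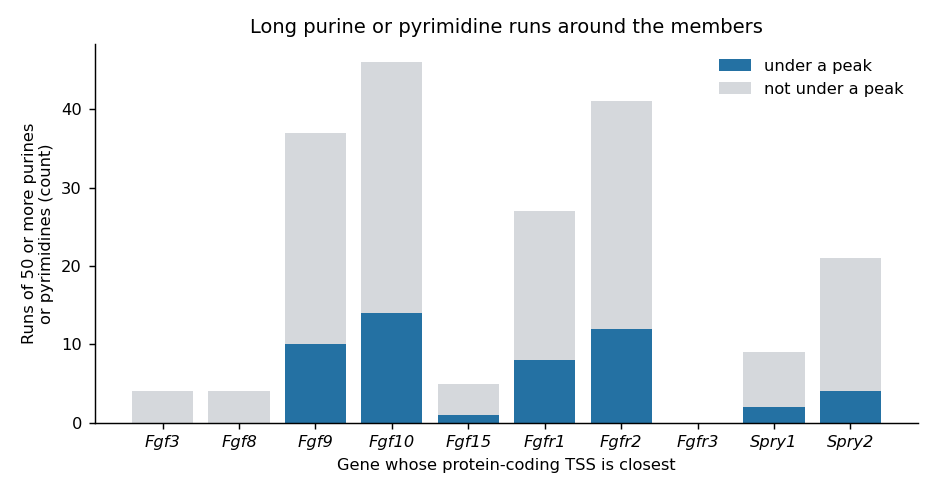
Count of runs of 50 or more purines or pyrimidines in the sequence closest to each gene among protein-coding TSSs. Blue parts of the bars are runs that overlap an Isl1 peak and grey parts are runs that do not. Fgf3 and Fgf8 have 4 runs each and none under a peak, and Fgf10 has 14 of 46 under a peak.

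When the assignment was left aside, every one of the 10 genes had a peak within 100 kb of one of its TSSs, as did 95.2% of all 22224 protein-coding genes in the annotation. The number ranged from 1 at Fgf9 to 8 at Fgfr1, with a median of 4 against 3 over all protein-coding genes. These were 38 different peaks, 19 of which the list had assigned to one of the 10 genes and 19 to a neighbour. Besides those already named, the neighbours were Gm10732, with a peak 9.57 kb upstream of the first Fgf10 TSS, and Gm4265. The Gm4265 peak lay beyond the 3′ end of the retained Fgfr2 transcripts.

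The wider Fgf pathway was described with a list of 43 further genes. Of these, 30 had a peak (69.8%, interval 53.9 to 82.8%), against 51.8% of all protein-coding genes, with 172 peaks in all. Of these peaks 94.2% held a run at the centre, and their median distance was 82.6 kb. The other ligands had a peak in 10 of 17 genes, the other receptors and co-receptors in 2 of 4, the other feedback inhibitors in 5 of 7, adaptors and transducers in 6 of 8, ETS factors in 3 of 3 and matrix and membrane partners in 4 of 4. The genes with the most peaks were Flrt3 with 25 and Flrt2 with 19, both membrane proteins that bind Fgf receptors. Fgf13 and Spred2 followed with 13 peaks each and Fgf14 with 11. The closest Flrt3 peak lay 61.6 kb from the TSS, in an intron of Macrod2. For the 43 genes, neither these counts nor the share with a peak were set against the length of sequence closest to each gene. Fgf13 and Fgf14 encode intracellular Fgf homologous factors that act on sodium channels and not on Fgf receptors. Such factors were counted in the group of 17 other ligands, although they are not secreted ligands. Of the 59 peaks of that group, 13 were assigned to Fgf13 and 11 to Fgf14.

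**Figure D5:**
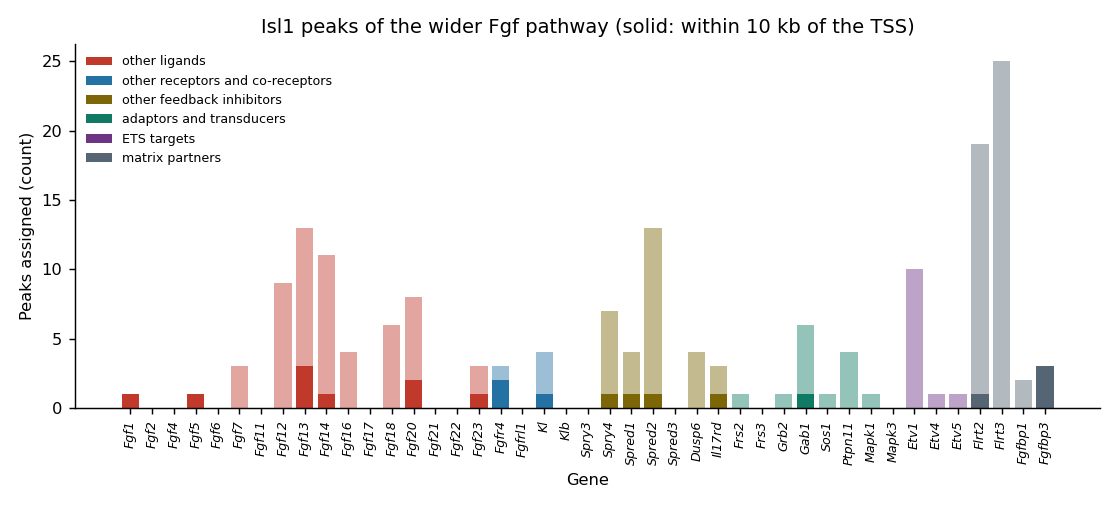
Number of Isl1 peaks assigned to each of 43 further Fgf pathway genes, grouped by role. Pale bars count all peaks and solid bars those within 10 kb of the TSS. Flrt3 has the most with 25 peaks, none within 10 kb, and 13 genes have no peak.

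A peak within 10 kb of the TSS was assigned to 15 of the 43 genes (34.9%), against 25.6% of all protein-coding genes. Among feedback inhibitors these were Spred1, Spred2, Spry4 and Il17rd, which dampen Ras-MAPK signaling. Spred1 had the closest of all, 0.253 kb downstream of its TSS at chr2:116946815-116947306, over an exon of Spred1. Its centre had a GC content of 83.6%, no TAAT match and a longest run of 6 bases. The Spred2 peak, 0.866 kb upstream, held a run of 172 bases. The closest peak lay at 1.97 kb for Il17rd and at 8.29 kb for Spry4, which is within an intron of the neighbouring Arhgap26.

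In the group of other ligands, genes with such a peak were Fgf1 (1.96 kb), Fgf23 (5.42 kb), Fgf5 (5.76 kb) and Fgf20 (6.37 kb). The intracellular factors Fgf13 (2.10 kb) and Fgf14 (3.85 kb), counted in the same group, also had one. The receptor Fgfr4 had one at 3.20 kb and the co-receptor gene Kl, which encodes Klotho, at 7.63 kb. The adaptor Gab1 had one at 4.20 kb, Flrt2 at 2.19 kb and the Fgf-binding protein gene Fgfbp3 at 7.43 kb. Spred1 aside, the closest peak of every gene with a peak within 10 kb held a run. Etv1, Etv4 and Etv5, the ETS factors downstream of Fgf signaling, had 10, 1 and 1 peaks and none within 10 kb. The 13 genes without a peak included 7 of those grouped as other ligands, among them Fgf4 and Fgf17.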

How the data were processed

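According to the methods of the study, the authors aligned reads (bowtie2, mm9), discarded PCR duplicates (Picard 1.136), called peaks (MACS), dropped blacklisted regions and named the gene with the nearest TSS. The deposited peak list holds whole-number positions and distances in bp per the file headers. The methods state that bedtools was used to find regions common to replicates, and a legend gives n = 2 for Isl1-bound genes, but not whether this list is such an intersection. The distances placed the TSS exactly on a GENCODE vM1 (mm9) TSS for 62.8% of 39018 peaks whose gene that annotation names, with positions counted from 1. Runs and motifs were searched within 100 bases of each peak midpoint in the mm9 sequence with Python 3. The searches for runs and for the closest TSS were first tested on simulated data, and the motif search was not. Of 11088 protein-coding names in the list, 193 matched no RefSeq gene by accession or symbol. Of the annotation, 2 transcripts longer than 2.5 Mb were left out, 1 of them of Fgfr2. The sequence of 1 peak is not reported here. No test was run, since there was 1 sample. Named were all 10 genes, the closest, exonic, widest, run-free and under 10 kb peaks of each, and wider-list genes with a peak within 10 kb or among the 5 with the most. Members, lists and settings were chosen with earlier results of these data known. Etv1, Etv4, Etv5, Fgf4, Fgf17 and Fgf18 were named outside this rule, after their values were seen.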

Additional observations from a re-analysis of the deposited data

How the results depend on the processing

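Of 27 alternative settings over 9 results, 13 stayed within 1.5 times the reported value. With peaks wider than the median only, 19 of the 35 peaks and 4 of the 7 genes were left, and the density over all annotated neighbours was 0.572 per 100 kb, against 0.908 over the genome. With peaks whose centre held no run, 1 peak and 1 gene were left, 7 genes of the wider list, and 2 of the 38 peaks within 100 kb. Under a limit of 10 kb, 2 of the 10 genes and 15 of the 43 had a peak. The count of peaks near the TSS was 1 within 5 kb, 5 within 20 kb and 4 when each peak went to the closest protein-coding TSS of the annotation, where Fgfr2 had 11 peaks in place of 5. The count in a window around the TSSs was 20 within 50 kb and 69 within 200 kb. Fgf3, Fgf8 and Fgfr3 had no peak by either assignment. No paired analysis was possible because 1 sample had a peak list. Without read counts or an input signal, strength, detection limit and the absence of binding could not be assessed.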

Other observations

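Of the 172 peaks of the wider Fgf list, 10 (5.81%) held no run at the centre, against 5.87% of all peaks, and they fell to 7 of the 43 genes (16.3%), against 9.58% of all protein-coding genes. In 5 of the 10 a run of 49 to 162 bases lay elsewhere in the peak or reached into its centre, and the other 5 had no run of 25 anywhere. Spred1, an inhibitor of Ras-MAPK signaling, had 3 of them among its 4 peaks, at 18.9 kb upstream and at 0.253 and 21.7 kb downstream of the TSS. The last of these, chr2:116968238-116968811, lay in an intron of Spred1 and its longest run anywhere in 574 bp was 7 bases. Fgf18, a ligand of skeletal and lung development, had 2, at 51.0 and 76.2 kb downstream. Flrt2, Flrt3, Fgf13, Fgf23 and Spred2 had 1 each. The Flrt2 peak, chr12:96395635-96396973, was the widest of the 172 at 1339 bp and lay 534 kb upstream of the TSS. Among all 2837 peaks of the list without a run, 34.4% lay within 10 kb of the TSS and 23.1% overlapped an exon, against 15.9% and 4.00% of all peaks, and TAAT occurred at 37.3% of their centres and in 66.8% of windows 1 kb away.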
